A study of Homo sapiens with 12 samples.

Results

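The comparison described here was between A375 human melanoma cells that expressed the single phosphosite mutant YAP S127A and A375 cells that carried the empty vector (Control). It comprised 6 of the 12 RNA-seq libraries of the study, 3 from A375-YAP S127A cells and 3 from Control cells, chosen by their labels. The other 6 libraries came from cells that expressed YAP S94A,S127A, which cannot bind the TEAD transcription factors, or YAP S127A,S381A (YAP 2SA), which lacks a further inhibitory phosphosite, and they enter only where they show how the S127A response differed. All 4 lines were made by transducing the A375 cell line with the retroviral vector MSCV-IRES-Hygro, which was empty or encoded a mutant of human YAP, and by selecting with hygromycin, so that the Control cells carried the vector and the resistance as well. The record describes no cloning step and gives 3 replicates plated for each line, so that p-values measured the spread between platings. A further label also lists S94A for YAP 2SA, which the titles do not. The record places RNA isolation 24 h after plating, whereas the study's methods state a longer culture.

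YAP is a transcriptional co-activator that does not bind DNA itself. It acts mainly through the TEAD factors, whose targets include secreted matricellular proteins, cytoskeletal genes and inhibitors of YAP itself. The kinases of the Hippo pathway, LATS1 and LATS2, phosphorylate YAP so that it is held in the cytoplasm or degraded, and the S127A change removes the site that drives cytoplasmic retention.

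Levels are FPKM, mapped fragments scaled to the size of the library and the length of the transcript. Differences are given as log2(FPKM + 1) in A375-YAP S127A cells minus that in Control cells, with the standard error (SE), a scale on which the change of a gene at a low level appears smaller than its fold. Of 31585 loci, 15055 reached 1 FPKM in 3 or more of the 12 libraries and were tested with limma, and p-values were adjusted over all of them by the Benjamini-Hochberg method. A gene is said to have risen or fallen at an adjusted p under 0.05, and a locus is called higher or lower if its group mean FPKM also differed by more than 2-fold. Some loci list several symbols, among them those of CYR61, EGFR, ITGB3, PDGFRB, GBP2 and HLA-DQB1, and their values cannot be given to 1 gene with certainty. A gene could pass the filter through the YAP S127A or YAP 2SA libraries alone. Read counts and with them the sequencing depth are not given, and 20161 to 20656 loci had a value above 0 in a library. With 3 libraries in each group, an exact permutation test of a single gene cannot give a p below 0.1.

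The YAP1 gene, on chromosome 11 of GRCh37 from 101981178 to 102104155, is read from both the endogenous gene and the vector. Its level was 159, 159 and 187 FPKM in the A375-YAP S127A libraries and 34.1, 33 and 172 FPKM in the Control libraries. The library labelled Control replicate 3 thus lay within the range of the YAP S127A libraries for YAP1, above 2 of them, and the groups overlapped. The log2 difference was 1.51 (SE 0.49, limma adjusted p = 0.11), and 2.29 without that library (adjusted p = 1.3e-06). At most loci called without it, this library lay nearer to the Control libraries. Of the 282 loci called higher without it, it lay nearer to the other Control mean than to the YAP S127A mean at 270 (95.7%), and at 38 of the 51 called lower (74.5%). Control replicates 1 and 2, treated in the same way, were nearer to Control at 283 of 296 and 246 of 250 loci called higher. On the way from Control to YAP S127A, the median position of replicate 3 at such loci was 7.16%, against 0.88% and -1.54% for replicates 1 and 2. At loci called lower it was 2.95%, against 38.0% and 10.1%. Of the 279 genes with a symbol called higher, replicate 3 was the highest Control library at 144, against 77 and 58 for replicates 1 and 2. Across loci, Control replicate 3 correlated at 0.960 to 0.965 with the other Control libraries and at 0.943 to 0.949 with the YAP S127A libraries, although loci share depth and are not independent. It was kept as labelled, and key values are repeated without it.

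In A375-YAP S127A cells, 311 of 15055 loci (2.07%) were called higher and 61 (0.405%) were called lower than in Control cells. Without Control replicate 3, 282 (1.87%) and 51 (0.339%) were called, of which 261 and 38 were among the first. Without regard to the fold, 687 loci rose (4.56%) and 263 fell (1.75%), and 511 (3.39%) and 166 (1.1%) did without Control replicate 3. The median log2 difference of all loci tested was -0.0023. Across all loci tested, the 3 YAP S127A libraries lay above the 3 Control libraries at 1745 (11.6%) and below them at 1466 (9.74%).

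Of the 311 loci called higher, 279 had a gene symbol, 20 were assembled loci without one and 12 were short RNAs, for which FPKM is an uncertain measure. Control cells had a mean below 1 FPKM for 177 of the 279, between 1 and 10 FPKM for 86 and at or above 10 FPKM for 16. The 177 passed the filter through YAP-expressing libraries, alone or with 1 or 2 Control libraries, so that their number is a description, and 1036 of all loci tested (6.88%) had a Control mean below 1 FPKM. The ratio of mean FPKM had a median of 3.85, and it exceeded 4 for 134 genes and 10 for 59. Of the 61 loci called lower, 19 had a gene symbol, 24 were assembled loci and 18 were short RNAs. The plot of all tested loci shows the called loci against their level.

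**Figure D1:**
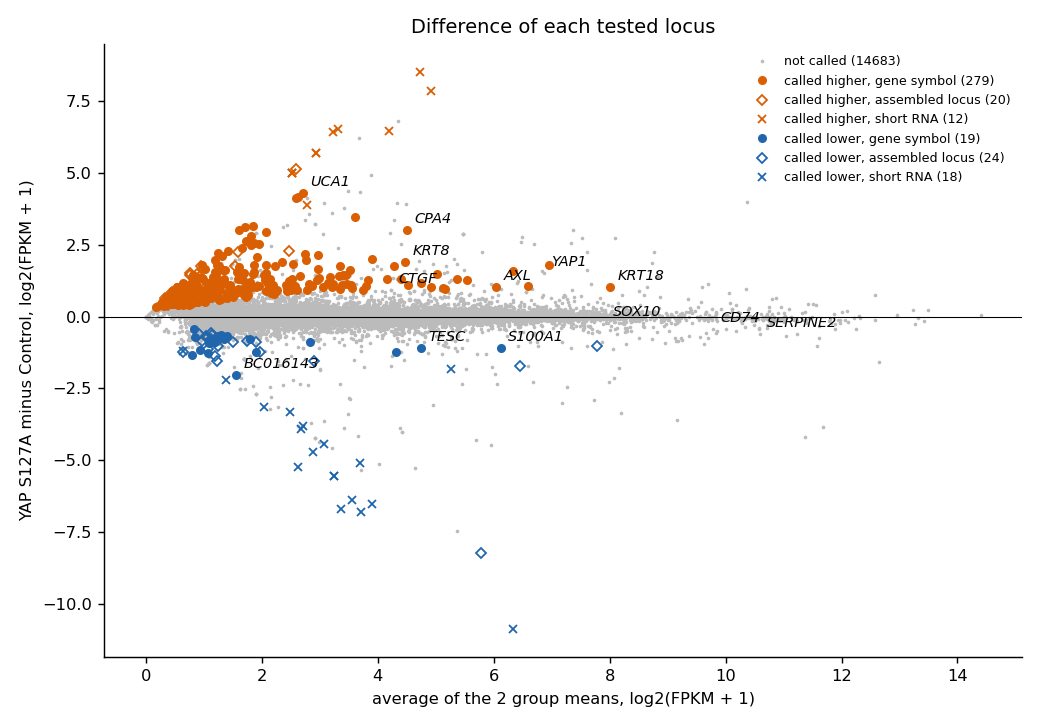
Each of the 15055 loci tested is plotted by the average of its Control and YAP S127A levels (horizontal axis, log2(FPKM + 1)) and its difference (vertical axis, YAP S127A minus Control on the same scale), with called loci in orange (higher) and blue (lower) by kind of locus. Most of the 279 genes called higher lie at low levels, CPA4, KRT8 and KRT18 stand at higher ones, and the called loci with the largest differences in either direction are short RNAs.

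Established YAP/TAZ target genes rose together. Of the 22 genes of the WANG YAP/TAZ list, a set of targets common to many cancers, all were tested. Of these, 15 rose (68.2%), 1 fell (4.55%) and 6 did not pass, with a median log2 difference of 0.55 against -0.0023 for all loci. Beside the counts of this and the later lists stand the shares of all loci tested, 4.56% for rises and 1.75% for falls. A list member below 1 FPKM in every Control library could be tested only through YAP-expressing libraries. Counts of rises that include such members are descriptions. The 3 YAP S127A libraries lay above the 3 Control libraries for 17 of the 22 genes. CTGF and CYR61, secreted matricellular proteins of the CCN family that bind integrins, are the most used readouts of YAP. CTGF was at 12.7, 12.2 and 12.7 FPKM in the Control libraries and at 26.6, 23.5 and 24.3 FPKM in the YAP S127A libraries (log2 difference 0.93, SE 0.10, limma adjusted p = 0.00031). CYR61 was at 15.3, 15.6 and 19.7 FPKM in Control and at 41.7, 39.3 and 36.1 FPKM in YAP S127A (1.17, SE 0.16, adjusted p = 0.0011). In both genes every YAP S127A library was above every Control library, and the spread within a group was small beside the gap. ANKRD1, a nuclear and sarcomeric ankyrin repeat protein, was scarcely expressed in Control at 0.638, 1.26 and 0.335 FPKM and stood at 4.24, 4.09 and 3.67 FPKM in YAP S127A (1.55, SE 0.21, adjusted p = 0.0015). F3, the tissue factor that starts coagulation, went from 1.26, 1.19 and 1.28 to 4.48, 4.25 and 3.39 FPKM (1.16, SE 0.09, adjusted p = 3.0e-05).

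The receptor tyrosine kinase gene AXL was well expressed in both groups, at 48.1, 40.7 and 47.4 FPKM in Control and 89.4, 95.6 and 94.3 FPKM in YAP S127A (1.02, SE 0.08, limma adjusted p = 2.3e-05). CRIM1, a transmembrane regulator of BMP signals, behaved alike, with 26.6, 23.7 and 26.2 FPKM against 49.9, 45.4 and 49.7 FPKM (0.90, SE 0.08, adjusted p = 4.8e-05). Rises of 0.38 to 1.01 were found for AMOTL2, CCDC80, FJX1, NUAK2, FOXF2, LATS2, TGFB2, MYOF and ASAP1. IGFBP3, which encodes a secreted binding protein for insulin-like growth factors, was the exception and fell, from 41.0, 52.6 and 48.3 FPKM to 23.1, 28.8 and 23.5 FPKM (-0.89, SE 0.10, adjusted p = 0.00044). The 6 genes that did not pass were PTPN14 (0.30, adjusted p = 0.058), ARHGEF17 (0.50, adjusted p = 0.10), GADD45A (0.29), RBMS3 (0.37), DOCK5 (0.05) and NT5E (-0.07). Without Control replicate 3, 14 genes rose and IGFBP3 fell, as ASAP1 no longer passed (adjusted p = 0.052).

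**Figure D2:**
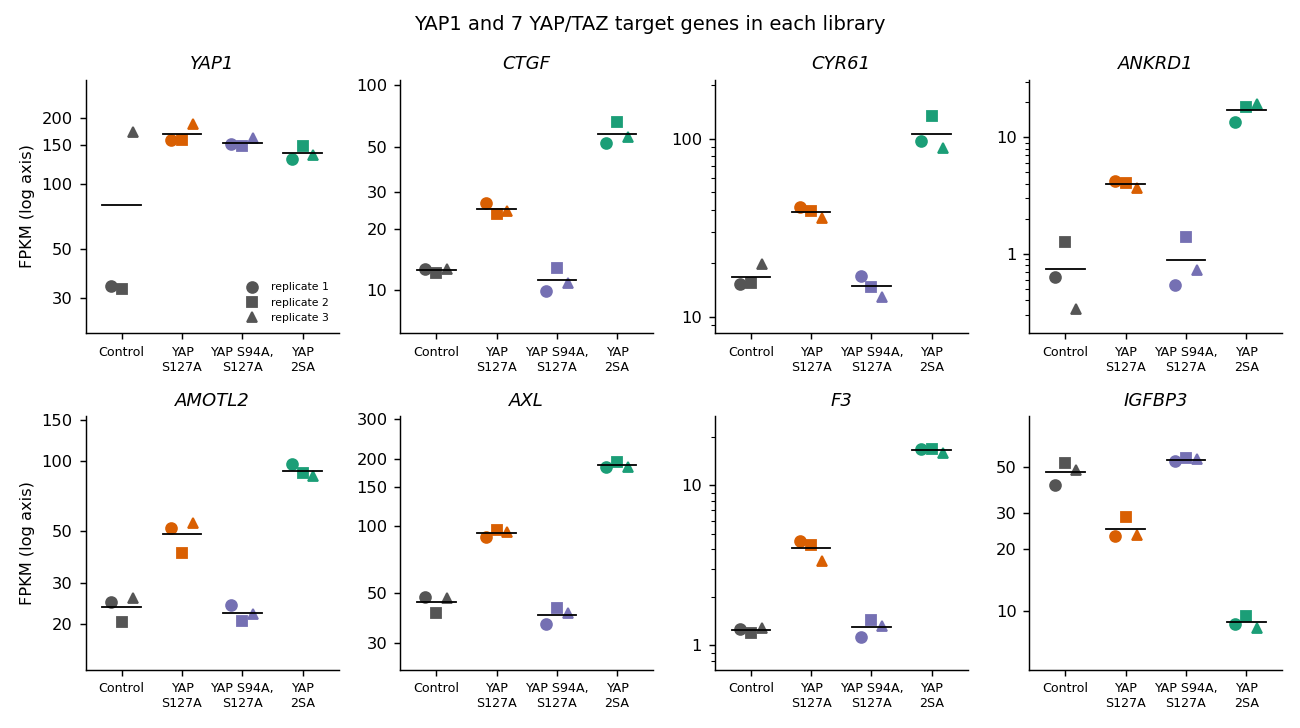
FPKM (log axis) of YAP1 and of 7 WANG target genes in each library of the 4 groups, with a symbol for each replicate and a bar at the group mean. The 3 YAP S127A libraries lie above the 3 Control libraries for the 6 target genes that rose and below them for IGFBP3, and YAP1 of Control replicate 3, at 172 FPKM, lies with the YAP-expressing libraries.

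The CORDENONSI YAP list, a further target set, had 44 of its 45 genes tested, of which 16 rose and 28 did not pass, with a median of 0.28. Among those that rose and are not on the list above, DLC1, a GTPase-activating protein, went from 4.37, 3.66 and 4.11 to 10.5, 10.2 and 7.84 FPKM (1.05, SE 0.10, limma adjusted p = 0.00016). FLNA, an actin crosslinker, rose from 181 ± 24.2 to 284 ± 17.7 FPKM (SD, n = 3). Of the 44, 12 rose without Control replicate 3. FSTL1, a secreted glycoprotein whose locus also lists a microRNA, had 2.63, 2.56 and 5.03 FPKM in Control and 23.5, 22.8 and 18.2 FPKM in YAP S127A, and its difference of 2.39 had an SE of 0.94, from the spread that the fit shares over the 4 groups, and an adjusted p of 0.19. That gene was chosen after its values were seen.

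The bases upstream of 4 genes that rose are printed to show where the letters bound by TEAD and AP-1 factors lie, and the genes were chosen with their motifs in view. The sequences are from RefSeq on GRCh38.p14 and cover the 250 bases before the start site, 5′ to 3′ on the strand of the gene. They lie at chr10:90921088-90921337 on the minus strand for ANKRD1, at chr6:131951373-131951622 on the minus strand for CTGF (CCN2), at chr19:34481508-34481757 on the plus strand for WTIP and at chr7:130292911-130293160 on the plus strand for CPA4. Capitals mark GGAATG and its reverse complement CATTCC, the core of the TEAD element, and TGANTCA, which reads the same on both strands. The latter is a loose pattern of the AP-1 element that allows any base at its center, which is T in ANKRD1 and G or C in CPA4.
ANKRD1: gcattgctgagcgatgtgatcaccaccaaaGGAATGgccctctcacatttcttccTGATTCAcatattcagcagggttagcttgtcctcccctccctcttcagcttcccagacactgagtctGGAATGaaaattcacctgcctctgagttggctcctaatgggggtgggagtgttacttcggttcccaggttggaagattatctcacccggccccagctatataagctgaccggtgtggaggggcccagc
CTGF: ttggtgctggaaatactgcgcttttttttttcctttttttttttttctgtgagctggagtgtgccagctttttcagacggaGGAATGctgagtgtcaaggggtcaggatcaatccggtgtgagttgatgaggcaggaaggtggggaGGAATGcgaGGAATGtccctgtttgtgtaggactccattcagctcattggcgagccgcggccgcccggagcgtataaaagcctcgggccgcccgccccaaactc
WTIP: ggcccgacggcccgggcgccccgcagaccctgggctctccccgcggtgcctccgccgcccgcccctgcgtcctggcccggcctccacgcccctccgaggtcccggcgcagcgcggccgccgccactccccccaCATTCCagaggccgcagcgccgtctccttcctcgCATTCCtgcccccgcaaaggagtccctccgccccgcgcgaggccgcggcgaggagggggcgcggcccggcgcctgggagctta
CPA4: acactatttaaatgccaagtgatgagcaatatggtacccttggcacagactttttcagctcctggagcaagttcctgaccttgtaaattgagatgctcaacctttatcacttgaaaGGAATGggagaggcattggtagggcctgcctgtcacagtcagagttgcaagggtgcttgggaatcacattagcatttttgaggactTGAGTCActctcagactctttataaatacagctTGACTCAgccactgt
The TEAD letters begin 220 and 128 bases before the ANKRD1 start site, 169, 104 and 95 bases before that of CTGF, 117 and 83 bases before that of WTIP and 134 bases before that of CPA4. The AP-1 letters begin 195 bases before the ANKRD1 start and 48 and 15 bases before that of CPA4. The TEAD letters are present in 11.9% of all 35116 promoters of that table and the AP-1 letters in 6.57%.

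Regulators of the Hippo pathway, activators of LATS and inhibitors of it alike, were among the genes that rose. Of 32 Hippo kinases, adaptors and upstream regulators, 30 were tested, with a median of 0.26. Of the 30, 12 rose (40%, against 4.56% of all loci tested) and 18 did not pass. WTIP, a LIM domain protein of the AJUBA family that inhibits LATS, went from 0.803, 1.15 and 1.48 to 5.16, 4.60 and 5.14 FPKM (1.49, SE 0.11, limma adjusted p = 1.8e-05), and the Control library with the highest value was replicate 3. AJUBA itself went from 8.61, 7.99 and 7.61 to 21.5, 20.9 and 21.0 FPKM (1.29, SE 0.14, adjusted p = 0.00031). WWC1 (KIBRA), which by contrast activates LATS, went from 0.970, 1.26 and 0.793 to 3.71, 3.74 and 4.30 FPKM (1.30, SE 0.12, adjusted p = 0.00012). AMOTL2, an angiomotin that holds YAP at junctions, went from 24.8, 20.4 and 25.7 to 51.7, 40.3 and 54.2 FPKM (1.01, SE 0.12, adjusted p = 0.00055). In these 4 genes the groups did not overlap.

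The kinase LATS2 rose by 0.53 (SE 0.08, limma adjusted p = 0.0028), from 5.79 ± 0.433 to 8.81 ± 0.773 FPKM, and its paralog LATS1 had 5.67 ± 0.522 and 4.80 ± 0.311 FPKM (-0.20, adjusted p = 0.25). LIMD1, WWC2, WWC3, SAV1, NUAK2, FJX1 and ARHGAP29 made up the rest of the 12. Of these ARHGAP29, a GTPase-activating protein, went from 2.59, 2.54 and 2.64 to 7.76, 8.19 and 6.68 FPKM. AMOTL2, LATS2, NUAK2 and FJX1 are also on the WANG list, so that the rises of the 2 lists are not separate. Other lists share members as well, so that their counts are not separate either. CRIM1 and AXL are on the WANG and CORDENONSI lists. CRIM1 is also on the later matricellular list, AXL on the dedifferentiation list, F3 of the WANG list on the protease list and TGFB2 on the TGF-beta list. Without Control replicate 3, 12 of the 30 rose as well.

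Among the factors that YAP works with, TEAD4 rose from 21.6, 19.7 and 19.6 to 29.0, 29.3 and 33.8 FPKM (0.57, SE 0.07, limma adjusted p = 0.00081) and TEAD3 from 2.61, 2.65 and 3.24 to 4.74, 4.78 and 5.21 FPKM (0.63, SE 0.08, adjusted p = 0.00094). TEAD1 had 13.0 ± 1.39 and 13.2 ± 0.52 FPKM and did not pass. WWTR1, which encodes the YAP paralog TAZ, was the most abundant of the 10 genes of the list in Control and fell from 193, 189 and 216 to 164, 163 and 155 FPKM (-0.31, SE 0.07, adjusted p = 0.021). Its groups did not overlap, but without Control replicate 3 its adjusted p was 0.070. VGLL2, a TEAD cofactor, rose from below 0.2 FPKM in each Control library to 0.939, 0.763 and 0.568 FPKM (0.70, adjusted p = 0.043, and 0.097 without Control replicate 3). Of the 8 genes of the list that were tested, 3 rose and 1 fell.

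The largest rises were of genes that Control cells hardly expressed. UCA1, a long non-coding RNA first described in bladder carcinoma and found on chromosome 19 of GRCh37 from 15939016 to 15947138, had 0.287, 0.446 and 0.675 FPKM in Control and 29.6, 28.4 and 25.2 FPKM in YAP S127A (4.29, SE 0.14, limma adjusted p = 9.2e-08). KISS1, which encodes the precursor of the kisspeptins and was found as a metastasis suppressor in melanoma cells, lies on chromosome 1 from 204159469 to 204165619. It had 0.698, 0.132 and 0.581 FPKM in Control and 27.9, 21.3 and 25.4 FPKM in YAP S127A (4.15, SE 0.17, adjusted p = 4.1e-07). BASP1, a membrane-bound signaling protein on chromosome 5 from 17065707 to 17276952, went from 0.425, 0.420 and 0.462 to 25.1, 25.4 and 21.7 FPKM (4.12, SE 0.08, adjusted p = 1.4e-09). Each of these was at least 20 FPKM in every YAP S127A library and below 1 FPKM in every Control library.

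CPA4, a carboxypeptidase on chromosome 7 from 129932974 to 129964020, was already at 6.25, 6.77 and 7.93 FPKM in Control and reached 69.6, 59.1 and 61.4 FPKM (3.01, SE 0.13, limma adjusted p = 4.9e-07). C19orf33 went from 3.55, 1.30 and 3.30 to 45.5, 35.8 and 34.6 FPKM (3.47, SE 0.28). The other 7 of the 12 largest rises were below 1 FPKM in every Control library. MME, the membrane metalloprotease neprilysin, reached 12.3, 11.3 and 6.03 FPKM, and SH3GL2, the endocytic protein endophilin A1, reached 10.9, 9.05 and 6.25 FPKM. NPPB, the natriuretic peptide precursor of the heart, reached 9.12, 6.42 and 7.24 FPKM, and a locus of TNNT2, the cardiac troponin T gene, reached 9.11, 7.87 and 8.06 FPKM. ESM1, a proteoglycan secreted by endothelial cells, reached 11.8, 13.4 and 7.22 FPKM, COL1A1 reached 8.42, 7.28 and 6.11 FPKM, and the placental alkaline phosphatase ALPP reached 7.49, 5.61 and 10.6 FPKM. ALPP shares sequence with ALPPL2, which was also called, so that reads may be divided between them. All 12 were also called without Control replicate 3.

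**Figure D3:**
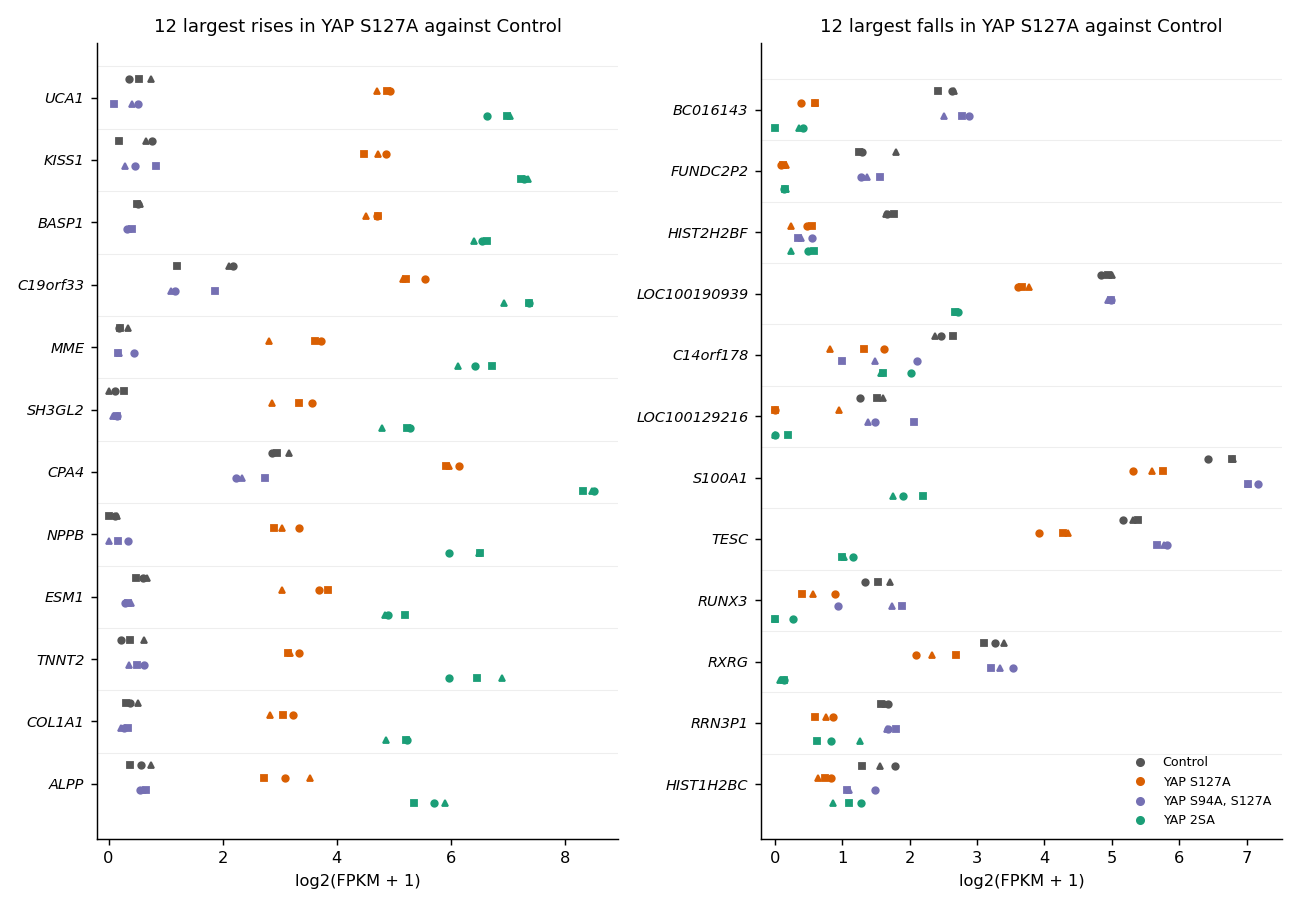
Levels (log2(FPKM + 1)) of the 12 genes with the largest rise (left) and the 12 with the largest fall (right) in every library, with 1 color for each group and 1 symbol for each replicate. The YAP S127A libraries (orange) lie between those of Control and YAP 2SA for the genes that rose, whereas HIST2H2BF and C14orf178 are low in all 3 YAP lines.

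By absolute gain rather than by fold, the epithelial keratin gene KRT18 stood first among the 279 genes with a symbol called higher. It had 199, 163 and 176 FPKM in Control and 383, 355 and 364 FPKM in YAP S127A (1.04, SE 0.08, limma adjusted p = 2.5e-05). Its partner KRT8 went from 9.58, 10.2 and 11.4 to 44.6, 43.3 and 37.7 FPKM (1.91, SE 0.09, adjusted p = 9.3e-07). BCYRN1, a neuronal non-coding RNA with repeat-derived sequence, went from 78.5, 62.9 and 56.2 to 211, 239 and 232 FPKM (1.78, SE 0.22). The CAV1 and CAV2 locus and IGFBP4 followed with rises of 93.2 and 72.0 FPKM in the group mean, then CPA4 with 56.4, AXL with 47.7 and TGM2 with 43.0 FPKM. The ranking by absolute gain was made after the values were seen.

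Genes of the extracellular matrix were divided. Of 46 matricellular and secreted matrix glycoprotein genes, 31 were tested, 9 rose and 2 fell, with a median of 0.23. BGN, the small proteoglycan biglycan, went from 8.47, 8.83 and 11.4 to 37.3, 36.3 and 31.0 FPKM (1.77, SE 0.12, limma adjusted p = 1.3e-05). NOV, another member of the CCN family, went from 1.78 ± 0.22 to 5.93 ± 0.99 FPKM (SD, n = 3). The binding proteins of insulin-like growth factors moved in different directions. IGFBP4 went from 68.7, 63.1 and 66.2 to 133, 131 and 150 FPKM (1.05, SE 0.08, adjusted p = 3.6e-05) and IGFBP6 from 70.9 ± 5.94 to 140 ± 17.0 FPKM (0.97, adjusted p = 0.00018). IGFBP3 fell as given above and IGFBP5 fell from 18.6 ± 2.67 to 11.6 ± 3.54 FPKM (-0.66, adjusted p = 0.041, and 0.14 without Control replicate 3).

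Of 35 collagen genes, 19 were tested and 6 rose, whereas the median of the 19 was -0.16. The 6 were COL1A1, COL5A1, COL5A2, COL8A1, COL12A1 and COL13A1. COL5A1, a fibril collagen chain, went from 3.59, 3.66 and 4.36 to 7.31, 7.40 and 8.17 FPKM (0.83, SE 0.08, limma adjusted p = 0.00018) and COL5A2 from 17.5, 17.6 and 23.4 to 29.7, 29.3 and 29.4 FPKM (0.58, SE 0.10, adjusted p = 0.0055). COL12A1 had 3.44, 2.33 and 6.66 FPKM in Control, the highest in replicate 3, and 11.8, 9.93 and 10.3 FPKM in YAP S127A. The most abundant chains did not pass. COL9A3, a cartilage collagen, had 216 ± 18.4 and 163 ± 8.69 FPKM (-0.41, adjusted p = 0.061), and the basement membrane chain COL4A2 had 149 ± 14.0 and 133 ± 14.7 FPKM (-0.16, adjusted p = 0.37). The summed level of the collagen list was 536 to 636 FPKM in Control and 478 to 542 FPKM in YAP S127A libraries.

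Among 32 laminin and integrin subunits, 24 were tested, 4 rose and 1 fell, with a median of -0.02. ITGB4, the integrin chain of hemidesmosomes, went from 3.91, 2.59 and 3.84 to 12.2, 12.3 and 13.8 FPKM (1.64, SE 0.13, limma adjusted p = 3.0e-05), and its ligand chain LAMA5 from 4.85, 5.08 and 6.45 to 10.9, 11.6 and 13.9 FPKM (1.03, SE 0.11, adjusted p = 0.00031). LAMA1, an embryonic laminin chain, was below 0.1 FPKM in each Control library and at 3.69, 2.79 and 1.58 FPKM in YAP S127A. ITGB2, a leukocyte integrin chain, reached 1.07, 0.968 and 1.54 FPKM, from 0.138, 0.119 and 0.540 FPKM. ITGB3, the vitronectin receptor chain, fell from 93.4 ± 10.5 to 58.9 ± 13.3 FPKM (-0.68, SE 0.16, adjusted p = 0.031, and 0.10 without Control replicate 3).

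Of 45 actin cytoskeleton and SRF target genes, 39 loci were tested, 17 rose and 22 did not pass, with a median of 0.25, and 14 rose without Control replicate 3. The largest was the locus of CAV1 and CAV2, the caveolins, which form membrane pits, with 46.7, 44.9 and 45.8 FPKM in Control and 150, 129 and 138 FPKM in YAP S127A (1.58, SE 0.10, limma adjusted p = 6.7e-06). PTRF (cavin), which shapes the same pits, went from 140 ± 10.6 to 232 ± 20.1 FPKM (0.72, adjusted p = 0.00087). The calponins CNN3 and CNN2 went from 86.2, 87.8 and 92.2 to 144, 143 and 142 FPKM (0.68, SE 0.05, adjusted p = 1.5e-05) and from 31.1, 28.9 and 32.5 to 55.8, 52.3 and 54.0 FPKM (0.79, SE 0.06, adjusted p = 3.0e-05). VCL, the focal adhesion protein vinculin, had a difference of 0.53 with an SE of 0.04 (adjusted p = 4.4e-05), from 24.1 ± 0.35 to 35.2 ± 1.19 FPKM. Myosin MYH9, the filamin FLNA and the tropomyosins TPM1, TPM2 and TPM4 also rose, by 0.23 to 0.67. Actin itself changed less, with ACTG1 at 1010 ± 57.1 and 1206 ± 43.5 FPKM (0.26, adjusted p = 0.036, and 0.11 without Control replicate 3).

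Several secreted ligands rose from near absence. Of 36 genes of the EGF family and other growth factors, 23 were tested, 9 rose and 2 fell, with a median of 0.34. NRG1 (neuregulin), a ligand of ERBB3 and ERBB4, went from 0.997, 0.620 and 0.892 to 7.16, 7.04 and 6.19 FPKM (2.09, SE 0.10, limma adjusted p = 8.5e-07). BDNF, a neurotrophin, went from 0.167, 0.339 and 0.332 to 1.65, 1.75 and 1.47 FPKM (1.04, SE 0.11, adjusted p = 0.00027). VEGFC, a lymphatic growth factor, went from 3.10, 2.92 and 3.18 to 5.79, 5.48 and 5.46 FPKM (0.69, SE 0.09, adjusted p = 0.00090). PDGFA, PDGFB, PDGFC, HBEGF, ADM and the NPPB gene named above completed the 9. Among them NRG1, BDNF and NPPB were below 1 FPKM in every Control and YAP S94A,S127A library. These genes passed the filter only through YAP S127A and YAP 2SA libraries, so that the count of rises is a description. TGFA, the most abundant EGF receptor ligand of the list, fell from 137 ± 13.9 to 94.2 ± 7.40 FPKM (-0.53, SE 0.10, adjusted p = 0.0083), and FGF1 fell from 1.65 ± 0.29 to 0.957 ± 0.0675 FPKM. Without Control replicate 3, 7 rose and 1 fell.

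Of 35 cytokine and chemokine genes, 19 were tested, 4 rose and 15 did not pass, with a median of 0.16. CXCL14, a chemokine of epithelia, went from 0.0725, 0.437 and 0.278 to 3.48, 3.13 and 3.37 FPKM (1.79, SE 0.14, limma adjusted p = 2.6e-05), and IL18 from 0.178, 0.611 and 0.592 to 3.20, 1.90 and 2.48 FPKM (1.27, SE 0.16, adjusted p = 0.00093). CXCL14 and IL18 were below 1 FPKM in every Control and YAP S94A,S127A library, and passed the filter only through YAP S127A and YAP 2SA libraries. CSF1, the macrophage growth factor, rose by 0.59 and CCL5 by 0.48, the latter with an adjusted p of 0.059 without Control replicate 3.

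In the TGF-beta and BMP list, 29 of 33 genes were tested and 6 rose, with a median of 0.07. GDF15, a stress-induced ligand, had the largest difference, from 1.49, 2.71 and 2.16 to 11, 16.2 and 12.4 FPKM (2.19, SE 0.26, limma adjusted p = 0.00052). FSTL3, a secreted inhibitor of activin, went from 9.24, 10.7 and 11.2 to 27.0, 27.1 and 27.6 FPKM (1.32, SE 0.09, adjusted p = 9.6e-06). NOG, the BMP antagonist noggin, rose by 0.66 and the ligand TGFB2 by 0.53, both from below 0.5 FPKM. The SMAD family genes SMAD3 and SMAD6 rose by 0.28 and 0.69. The adjusted p of NOG and SMAD6 was 0.058 and 0.13 without Control replicate 3. Of 50 Wnt pathway genes, 29 were tested and 4 rose (13.8%), with a median of 0.09. DKK1, a secreted inhibitor of Wnt receptors, went from 7.83, 6.53 and 4.91 to 35.6, 23.9 and 27.1 FPKM (2.01, SE 0.16, adjusted p = 3.0e-05). The ligand WNT7A was listed at 0, 0 and 0.0432 FPKM in Control and at 1.13, 1.25 and 0.852 FPKM in YAP S127A. WNT7A, NOG and TGFB2 were below 1 FPKM in every Control and YAP S94A,S127A library, and passed the filter through the other YAP lines. The receptor FZD2 rose by 0.66 and the co-repressor TLE4 by 0.31.

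AP-1 factors, which occupy many enhancers together with TEADs, rose in part. Of 20 genes, 18 were tested, 7 rose and 1 fell, with a median of 0.17. FOSL2 went from 2.63, 2.89 and 3.01 to 8.47, 9.90 and 9.48 FPKM (1.42, SE 0.12, limma adjusted p = 4.9e-05). JUN went from 5.00, 4.83 and 4.72 to 13.2, 11.3 and 12.3 FPKM (1.18, SE 0.09, adjusted p = 2.7e-05), and JDP2, a repressor of the family, from 0.577, 0.433 and 0.686 to 2.03, 2.79 and 2.71 FPKM (1.16, SE 0.12). FOSL1, the most abundant FOS gene, had 145, 136 and 107 FPKM in Control and 187, 179 and 187 FPKM in YAP S127A (0.52, SE 0.13, adjusted p = 0.039), and its adjusted p without Control replicate 3, the lowest Control library, was 0.11. MAF, which serves the melanocyte lineage among others, fell from 9.25 ± 0.355 to 6.53 ± 0.67 FPKM (-0.45, adjusted p = 0.0084). Of the list, 5 rose and 2 fell without Control replicate 3.

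Of 27 genes of the dedifferentiated melanoma state and of epithelial-mesenchymal transition (EMT), 24 were tested, 9 rose and 15 did not pass, with a median of 0.19. SOX9 went from 0.495, 0.453 and 0.439 to 3.55, 4.36 and 2.66 FPKM (1.61, SE 0.15, limma adjusted p = 8.9e-05). The EGF receptor gene EGFR went from 3.35, 5.16 and 5.08 to 16.6, 13.1 and 10.9 FPKM (1.40, SE 0.18, adjusted p = 0.0011), and the transglutaminase TGM2 from 25.4, 30.1 and 30.7 to 60.6, 70.3 and 84.3 FPKM (1.28, SE 0.17, adjusted p = 0.00093). MET and EPHA2, both receptor kinases, rose by 0.61 and 0.97. VIM, the mesenchymal filament protein, had 744 ± 39.8 and 762 ± 27.6 FPKM (0.04, adjusted p = 0.81).

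Of 28 melanocyte lineage and pigment genes, 13 were not expressed highly enough to test, among them TYR, TYRP1, DCT, PMEL and MLANA. Of the 15 tested, 1 rose (6.67%), 1 fell (6.67%) and 13 did not pass, with a median of -0.09. GPNMB, a melanosome glycoprotein, rose from 22.6, 26.3 and 22.9 to 36.2, 38.0 and 39.9 FPKM (0.65, SE 0.08, limma adjusted p = 0.00055). SOX10, the factor that keeps the lineage, had 234, 274 and 281 FPKM in Control and 188, 230 and 255 FPKM in YAP S127A, ranges that overlapped (-0.24, adjusted p = 0.46). MITF had 5.01, 9.73 and 11 FPKM against 11.9, 13.9 and 14.6 FPKM (0.65, SE 0.26, adjusted p = 0.20).

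Feedback genes of ERK signaling, which BRAF-mutant A375 cells express at a high level, mostly did not pass, as held for all loci tested. Of 27 genes, 26 were tested, with a median of -0.08. EPHA2 and FOSL1 rose (2 genes, 7.69%) and EPHA4 fell (1 gene, 3.85%), against 4.56% and 1.75% of all loci tested. DUSP6 had 78.6 ± 13.8 and 58.7 ± 9.76 FPKM (-0.41, limma adjusted p = 0.18) and SPRY4 had 106 ± 12.9 and 71.3 ± 14.6 FPKM (-0.58, adjusted p = 0.057).

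The genes that fell included the antigen presentation genes of MHC class II. In the list of 46 MHC class II and interferon-stimulated genes, 40 loci were tested, 9 fell and 3 rose, with a median of 0.02. Of the 9, 8 were HLA class II chains or their loading partners, and the other was the locus of GBP2, an interferon-induced GTPase. CD74, the invariant chain, was at 1024, 984 and 1034 FPKM in Control and 741, 732 and 800 FPKM in YAP S127A (-0.42, SE 0.06, limma adjusted p = 0.0019). HLA-DRA went from 353, 392 and 360 to 240, 247 and 273 FPKM (-0.54, SE 0.08, adjusted p = 0.0021), HLA-DQA1 from 18.4, 21.6 and 20.3 to 12, 13 and 12.2 FPKM (-0.66, SE 0.08, adjusted p = 0.00061) and HLA-DMA from 54.5, 60.1 and 57.2 to 39.7, 37.7 and 43.7 FPKM (-0.50, SE 0.07, adjusted p = 0.0015). None of these ranges overlapped, and none of the falls reached 2-fold. HLA class II genes share sequence, so that reads may be divided among them. The 3 that rose were the interferon-stimulated genes IFITM2 (0.80), IFIT3 (0.47) and OAS3 (0.33). Without Control replicate 3, 5 fell and 3 rose.

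Of 37 plasminogen, coagulation and protease genes, 28 were tested, 6 rose and 4 fell, with a median of 0.07. SERPINE2 (protease nexin), the most abundant of them, had 1709, 1882 and 2083 FPKM in Control and 1182, 1268 and 1297 FPKM in YAP S127A (-0.59, SE 0.08, limma adjusted p = 0.0015). TIMP1 fell from 259 ± 24.4 to 184 ± 22.2 FPKM (-0.50, adjusted p = 0.0088), while TIMP2 went from 29.4, 29.0 and 36.7 to 48.6, 50.1 and 50.5 FPKM (0.64, SE 0.08, adjusted p = 0.00079). The protease HTRA1 and the locus of SERPINA3 and SERPINA5 fell, with adjusted p values of 0.027 and 0.045, and of 0.083 and 0.14 without Control replicate 3.

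The 12 largest falls were smaller than the rises. S100A1, a calcium-binding protein of melanocytic and muscle cells on chromosome 1 from 153600402 to 153604515, went from 84.8, 108 and 110 to 38.6, 53.3 and 47.1 FPKM (-1.11, SE 0.15, limma adjusted p = 0.0010). TESC, a calcium-binding regulator of ion exchange on chromosome 12 from 117476728 to 117537284, went from 34.9, 41.0 and 38.6 to 14.2, 18.4 and 19.3 FPKM (-1.11, SE 0.11, adjusted p = 0.00013). The unannotated transcript LOC100190939 went from 27.7, 29.7 and 30.9 to 11.1, 11.7 and 12.6 FPKM (-1.25, SE 0.06, adjusted p = 8.5e-07). Of the 19 genes with a symbol called lower, these 3 had a Control mean of 10 FPKM or more. The largest by log2 difference was BC016143, from 5.22, 4.36 and 5.33 to 0.310, 0.516 and 0.517 FPKM (-2.04, SE 0.14), followed by the pseudogene FUNDC2P2, from 1.45, 1.39 and 2.48 to 0.0688, 0.0882 and 0.123 FPKM (-1.32, SE 0.14).

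Transcription factor genes were among the 12. RXRG, a retinoid receptor of melanocytic cells, went from 8.60, 7.63 and 9.59 to 3.26, 5.42 and 4.04 FPKM (-0.89, SE 0.14, limma adjusted p = 0.0043), and RUNX3 from 1.54, 1.91 and 2.28 to 0.863, 0.319 and 0.478 FPKM (-0.91, SE 0.23, adjusted p = 0.046). Neither was called without Control replicate 3, RXRG because its fold fell short (adjusted p = 0.021) and RUNX3 because its adjusted p was 0.14. LOC100129216 and C14orf178 were not called without it either (adjusted p of 0.090 and 0.058). Of the 19 genes called lower, 11 were also called without that library, and of the 279 called higher, 240 were.

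**Figure D4:**
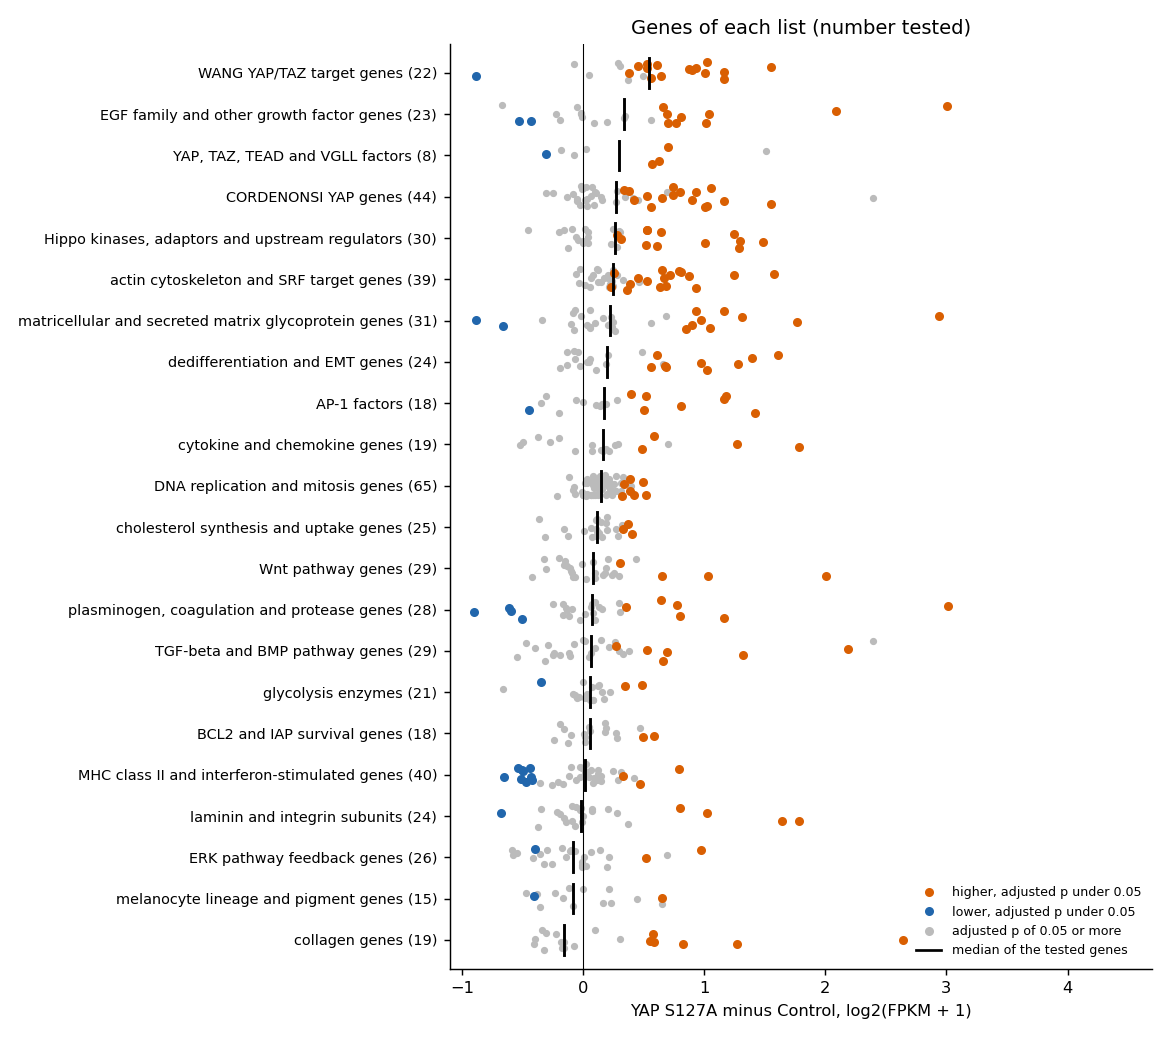
Log2 difference (YAP S127A minus Control) of each tested gene in 22 lists, ordered by the median (black bar), with genes that rose in orange, genes that fell in blue and the others in gray. The WANG targets have the highest median, 0.55, and the collagen list the lowest, -0.16, although 6 collagen genes rose.

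Of 66 DNA replication and mitosis genes, 65 were tested and 7 rose, by 0.32 to 0.52, and 58 did not pass, with a median of 0.14. MKI67, the proliferation antigen, went from 32, 27.5 and 28.9 to 37.2, 35.9 and 38.9 FPKM (0.34, SE 0.06, limma adjusted p = 0.0094), and ANLN (anillin) from 45.5, 40.7 and 39.9 to 59.7, 53.7 and 52.0 FPKM (0.38, SE 0.06, adjusted p = 0.0050). CDT1, MYBL2, MCM2, CDC20 and TK1 had adjusted p values of 0.014 to 0.044. Only ANLN and MKI67 of the list passed without Control replicate 3, and the median was then 0.09. CCND1 and MYC, cell cycle drivers on the ERK list, did not pass (0.14 and 0.03).

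Among 21 BCL2 and IAP survival genes, 18 were tested and 2 rose (11.1%), with a median of 0.05. BCL2L1, which encodes the anti-apoptotic protein BCL-XL, went from 23.8, 24.8 and 26.6 to 33.3, 36.8 and 44.9 FPKM (0.59, SE 0.09, limma adjusted p = 0.0032), and the pro-apoptotic BOK from 3.98, 4.52 and 5.13 to 6.17, 6.48 and 7.72 FPKM (0.49, SE 0.12, adjusted p = 0.043). Of 26 cholesterol synthesis and uptake genes, 25 were tested and ACAT2, MVK and MVD rose, by 0.33 to 0.41, of which only ACAT2 passed without Control replicate 3. Of 21 glycolysis enzymes, all were tested. PFKP and the glucose transporter SLC2A1 rose by 0.35 and 0.48, while PFKFB3 fell from 39.3, 36.4 and 38.2 to 28.6, 29.8 and 30.3 FPKM (-0.35, SE 0.06, adjusted p = 0.0084), and without Control replicate 3 only PFKFB3 passed.

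Against the other YAP lines, most of the genes called higher in YAP S127A stood between YAP S94A,S127A and YAP 2SA. The median level of the 279 genes was 0.486 FPKM in Control, 0.492 FPKM in YAP S94A,S127A, 2.60 FPKM in YAP S127A and 8.20 FPKM in YAP 2SA. These comparisons share the YAP S127A libraries by which the genes were chosen, so that their counts are descriptions. Of all loci, 382 (2.54%) were called higher and 143 (0.95%) lower in YAP S127A than in YAP S94A,S127A, and of the 311 loci 286 were called higher than in both Control and YAP S94A,S127A. Between YAP S127A and YAP 2SA, 894 loci (5.94%) were called higher in YAP S127A and 778 (5.17%) lower. Of the 279 genes, 251 were lower in YAP S127A than in YAP 2SA, 25 were not called and 3 were higher. Between YAP S127A and YAP S94A,S127A, 262 of the 279 were called higher in YAP S127A and 17 were not called.

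CTGF had 9.94, 12.8 and 10.9 FPKM in YAP S94A,S127A and 52.1, 66.1 and 55.5 FPKM in YAP 2SA, and it was lower in YAP S127A than in YAP 2SA by a log2 difference of -1.19 (95% confidence interval -1.41 to -0.96, limma adjusted p = 8.3e-06). UCA1 had a mean of 0.280 FPKM in YAP S94A,S127A and 118 FPKM in YAP 2SA. For a few genes that rose, no difference between YAP S127A and YAP 2SA passed the test. COL5A1 differed by -0.02 (95% confidence interval -0.20 to 0.17), MAFF, a small MAF factor, by -0.08 (-0.35 to 0.18) and LAMA1 by -0.32 (-0.84 to 0.20). For MAFF the difference between YAP S127A and YAP S94A,S127A did not pass either (0.29, limma adjusted p = 0.16). Its mean was 13.7 FPKM in Control, 20.1 FPKM in YAP S94A,S127A and 24.9 FPKM in YAP S127A. For CD74 the step was the other way, with 757 ± 36.9 FPKM in YAP S127A and 38.1 ± 2.55 FPKM in YAP 2SA, and S100A1 had 46.3 FPKM and 2.91 FPKM.

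**Figure D5:**
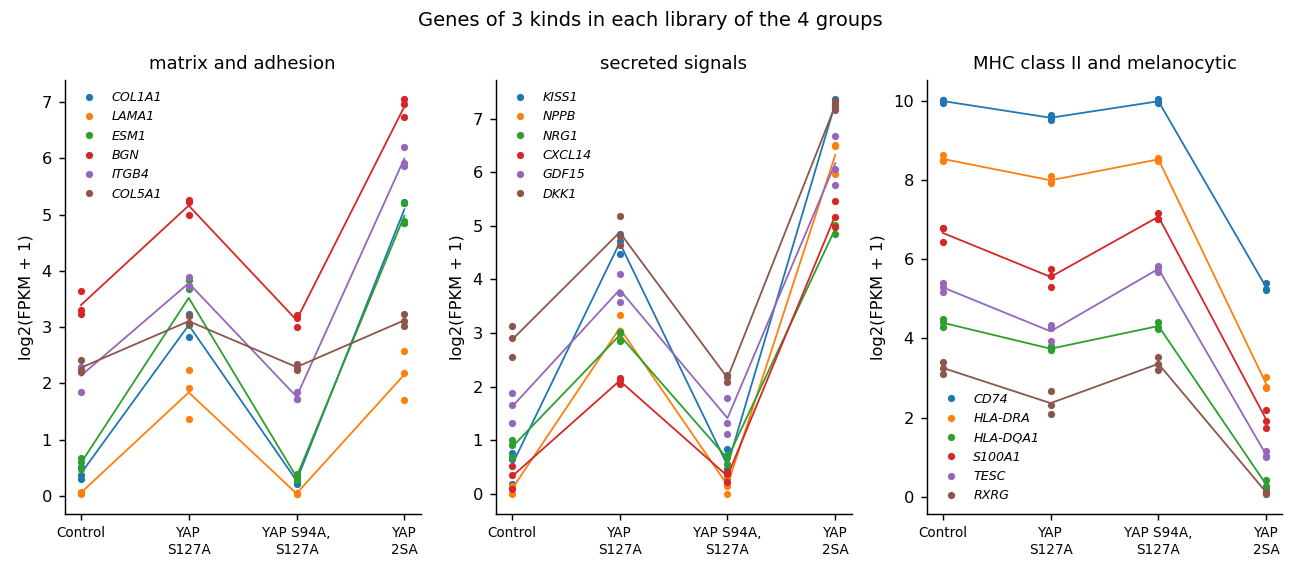
Levels (log2(FPKM + 1)) of 18 genes in each library of the 4 groups, as points, with lines that join the group means of a gene. YAP S127A lies between Control and YAP 2SA for most genes that rose (left and middle), COL5A1 and LAMA1 are near their YAP 2SA level, and the genes that fell (right) fell far less than in YAP 2SA.

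The 3 named genes that were higher in YAP S127A than in both Control and YAP 2SA were MT1G, TUBB4Q and TUBB8, and the other 9 of these 12 loci were short RNAs. MT1G, a metal-binding metallothionein on chromosome 16 from 56700642 to 56701977, had 0.344, 0 and 0.767 FPKM in Control, 7.44, 4.34 and 6.82 FPKM in YAP S127A, 3.31, 3.97 and 3.45 FPKM in YAP S94A,S127A and 0, 0.653 and 0.876 FPKM in YAP 2SA. It did not differ at an adjusted p under 0.05 between YAP S127A and YAP S94A,S127A (0.63, limma adjusted p = 0.18). TUBB4Q and TUBB8, tubulin genes of high mutual similarity whose reads may be shared, had means of 0.378 and 0.392 FPKM in Control and 2.85 and 2.17 FPKM in YAP S127A. Among the falls, the locus of AX747534 and the histone gene HIST2H2BF had 2.16, 2.42 and 2.15 FPKM in Control, and means of 0.351, 0.349 and 0.363 FPKM in YAP S127A, YAP S94A,S127A and YAP 2SA, so that Control stood apart from all 3 YAP lines.

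The labelled identity, malignant melanoma, was checked on marker lists, and in bulk RNA fewer cells of a type and less RNA per cell cannot be told apart. SOX10, S100A1, S100B and VIM were expressed, whereas TYR and DCT were at or below 0.02 FPKM and the other pigment markers PMEL, MLANA and TYRP1 below 1 FPKM in the mean. Of the 10 melanocytic markers, 5 were tested and S100A1 fell, with a summed level of 1155 to 1174 FPKM in Control and 1062 to 1095 FPKM in YAP S127A. Of the 10 keratinocyte and epithelial markers, 5 were tested and KRT8 and KRT18 rose, and the summed level went from 206 to 242 FPKM up to 429 to 459 FPKM, while KRT1 and TP63 were listed at 0 in the Control mean and EPCAM and CDH1 stayed below 0.1 FPKM. Of the 10 fibroblast markers, 4 were tested and COL1A1 and PDGFRB rose, with summed levels of 45.9 to 48.2 and 57.9 to 59.4 FPKM, while COL1A2, COL3A1, THY1 and FAP stayed below 0.1 FPKM. None of the 6 endothelial markers was tested, at a summed level of 0.84 to 1.52 FPKM in Control. Of the 8 leukocyte markers, 3 were tested. CSF1R shares its locus with PDGFRB and rose with it, and LYZ fell by 0.36 (adjusted p = 0.048), while HBB was listed at 0 in both groups. The part of other cells in these results was not tested.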

How the data were processed

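RNA-seq libraries from the 4 A375 lines (3 each, 12 in all) were made and sequenced by the authors with Illumina TruSeq chemistry. The submitters' processing notes name bcl2fastq 2.15.0, Bowtie2 2.0.0, TopHat2 2.0.4 and Cufflinks 2.0.2 with hg19. The authors deposited a table of log2(FPKM + 1) values per assembled locus, and no read counts, so depth is unknown and no counting interval can be given. An FPKM carries length and library scaling, and loci that share sequence divide their reads by the estimate of Cufflinks.

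Of 31588 entries, 3 duplicates were removed. The 15055 loci that reached 1 FPKM in 3 or more libraries were fitted in limma 3.58.1 (R 4.3.3) with 1 mean per group over all 12 libraries and an intensity trend, with the pseudocount of 1 kept, and p-values were adjusted by the Benjamini-Hochberg method. The steps were tested on simulated data. Means and SDs of FPKM used n = 3. A locus counted as a short RNA if all of its symbols were of short RNAs. The alternatives changed the pseudocount, filter, scaling, fit, thresholds and libraries.

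The genes named were YAP1, the WANG list, the 12 largest called rises and falls among loci with a symbol whose groups did not overlap, up to 4 genes per list with the smallest p, and up to 8 loci above both Control and YAP 2SA. Others were chosen after their values were seen. The members and lists were chosen with earlier results of these data known. Gene coordinates are those of GENCODE on GRCh37. A few members of the lists are counted but not reported by name here.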

Additional observations from a re-analysis of the deposited data

How the results depend on the processing

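Against 311 loci called higher and 61 called lower, a filter of 5 FPKM gave 193 and 26, a fold of more than 2 on the log2(FPKM + 1) scale gave 158 and 36, no fold threshold gave 687 and 263, and an adjusted p under 0.01 left 36 lower. Called higher than in both Control and YAP S94A,S127A were 286 loci, and 180, 141 and 632 with that filter, that fold and no fold. Called higher than in both Control and YAP 2SA were 12, and 19 without the filter on low values, 3 without short RNAs and 22 without the fold. A limma fit of only the 6 libraries compared left 447 of 950 loci past the adjusted p, and, in an alternative added after seeing the data, the same fit without Control replicate 3 left 271 and called 181 higher. These fits give no value for the counts that involve another group.

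Leaving out each replicate in turn gave 250 to 306 loci called higher, 47 to 95 called lower (95 without Control replicate 1), 621 to 887 past the adjusted p (621 without Control replicate 2), 238 to 281 for both Control and YAP S94A,S127A and 9 to 15 for both Control and YAP 2SA. The YAP1 difference ranged from 1.12 to 2.29 and was 2.29 without Control replicate 3 (limma adjusted p = 1.3e-06, and 0.0011 in the fit of 6 libraries). NT5E, which passed in no fit, went from -0.17 to 0.050 over these fits, with the sign changed without Control replicate 3 (0.050) and without YAP S127A replicate 3 (0.0067). Of the 114 other named genes, 95 were run under all 17 alternatives and 94 of these kept their direction, and 19 fell outside the filter of 5 FPKM. Of the 108 past the threshold 91 were also past it without Control replicate 3. With the replicate block, 303 loci were called higher and 60 lower and 1032 were past the adjusted p. The pairing was not borne out, as same-numbered Control and YAP S127A libraries had correlations of their deviations of 0.053, -0.15 and -0.067, and not every library correlated best with its own number. The causes of these changes were not tested.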

Other observations

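The genes in this paragraph and the next were chosen after their values were seen and were all called higher, also without Control replicate 3. They form no list that was tested. The keratin KRT7 went from 5.30, 5.54 and 4.63 FPKM in Control to 16.1, 15.3 and 15.2 FPKM in YAP S127A (1.43, SE 0.12, limma adjusted p = 4.4e-05), and KRT80 from 18.8, 18.3 and 17.8 to 53.8, 50.5 and 55.4 FPKM (1.49, SE 0.12, adjusted p = 3.0e-05). The desmosome plaque gene PKP2 went from 0.703, 0.945 and 1.23 to 6.62, 5.82 and 5.02 FPKM. The keratinocyte crosslinking enzyme TGM1 had 0.417, 0.179 and 0.856 FPKM in Control and 10.4, 5.76 and 5.98 FPKM in YAP S127A. SFN, which encodes the epithelial 14-3-3 sigma protein, rose from a mean of 0.692 to 4.45 FPKM and DMKN, a secreted epidermal protein, from 2.69 to 15.4 FPKM. AP1M2, the clathrin adaptor subunit of epithelial sorting, rose from 1.52 to 7.58 FPKM. In YAP 2SA, KRT7 and PKP2 were higher still, at means of 36.4 and 24.9 FPKM, and in YAP S94A,S127A they were at 5.21 and 0.706 FPKM. TGM1 did not differ at an adjusted p under 0.05 between YAP S127A and YAP 2SA (-0.32, limma adjusted p = 0.44). Of the 10 keratinocyte and epithelial markers of the list above, 5 were tested and 2 rose. KRT1, TP63, EPCAM and CDH1 were not among those that rose.

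L1CAM, a neural adhesion molecule, went from 12, 12.6 and 12.8 to 27.9, 30.8 and 38.0 FPKM (1.29, SE 0.14, limma adjusted p = 0.00027), and ALCAM from 3.12, 4.27 and 4.48 to 12.8, 12.5 and 9.82 FPKM (1.36, SE 0.12, adjusted p = 8.9e-05). SEMA3F, a secreted repellent of axons and vessels, rose from a mean of 1.48 to 5.80 FPKM. The mesothelial antigen gene MSLN had 0.338, 0.177 and 0.775 FPKM in Control and 3.40, 3.39 and 3.37 FPKM in YAP S127A, and UPK3B rose from a mean of 1.48 to 6.07 FPKM. The interleukin receptor chain IL7R went from 2.27, 2.47 and 2.50 to 12.1, 13.3 and 11.6 FPKM (1.96, SE 0.12, adjusted p = 6.1e-06). The slow and cardiac troponin gene TNNC1 rose from a mean of 0.377 to 3.27 FPKM, and the transcription factor gene ETS1 from 8.74 to 17.5 FPKM.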
